A study of Mus musculus with 2 samples.

Results

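The Pax genes encode 9 paired-domain transcription factors, Pax1 to Pax9, and were examined here by the regions of open chromatin that were assigned to them in cardiac progenitor cells (CPCs). Each distinct peak whose deposited gene symbol was a Pax gene was taken, and a gene without such a peak counted as 0. This gave 24 of the 26232 distinct peaks in the list, assigned to 8 of the 9 genes. Pax5 had no peak under its own name.

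The peaks come from ATAC-seq, an assay that uses Tn5 transposase to tag accessible DNA with adapters. The 2 samples, both labelled day 5 CPCs, form 1 group and per the study's methods came from independent differentiations of mouse embryonic stem cells. The line was E14 Tg(Nkx2–5-EmGFP), in which a fluorescent protein reports Nkx2-5, and the labels give the strain as C57BL/6 and the passages as 16-20. Stem cells had been kept on feeder fibroblasts, and the growth protocol in the labels of both samples names BMP4, Activin A, VEGF, bFGF and FGF10 for directed differentiation. No knockdown is labelled in either sample, and the Isl1 knockdown cells that the series names were not analysed here. The methods describe sorting of GFP-positive day 5 CPCs elsewhere in the study but name no sort in the ATAC-seq protocol, so whether other cell types of the culture were removed is not known. Both replicates are represented by 1 list of regions found in each of them. The list has no value per replicate, so read depth is unknown, the spread between replicates could not be measured, and intervals given here cover counting error only.

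Pax proteins bind DNA through the paired domain, and some members also carry a complete or a partial homeodomain. They act early in organ formation, where they set up progenitor pools of the somites, neural crest, eye, kidney, thyroid, thymus, pancreas and B lymphocytes. Pax3 is the member best known in the heart, where it is needed in the cardiac neural crest that divides the outflow tract. The family falls into the subfamilies Pax1 and Pax9, Pax2 with Pax5 and Pax8, Pax3 and Pax7, and Pax4 and Pax6, and the results are given in that order.

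Sequences of the central 300 bp of 5 Pax peaks are shown as examples, from CpG-dense DNA far from its assigned gene start to DNA with none of the searched motifs. They do not span the full range of CG content in the family. Capitals mark matches, on either strand, to TAATTA and CTAATG (homeodomain core letters), GATAA (the GATA factor core), TCACGC (part of a paired-domain site), CAGCTG (an E-box) and GGGCGG (a GC box bound by Sp factors). All coordinates are 1-based on mm9, and these 5 are given on the + strand. No annotated exon lies in any of them. Names give the gene and the signed distance in bp from its assigned transcription start site (TSS), with minus for upstream. The 2 upstream regions of Pax2 come first.
Pax2 -72983, chr19:44758752-44759051, + strand: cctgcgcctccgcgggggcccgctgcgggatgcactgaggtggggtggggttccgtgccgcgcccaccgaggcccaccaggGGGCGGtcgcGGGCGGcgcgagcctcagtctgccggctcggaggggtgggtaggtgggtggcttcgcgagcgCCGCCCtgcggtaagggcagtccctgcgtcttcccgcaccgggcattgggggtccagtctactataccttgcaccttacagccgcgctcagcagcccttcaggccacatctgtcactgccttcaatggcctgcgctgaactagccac
Pax2 -15168, chr19:44816567-44816866, + strand: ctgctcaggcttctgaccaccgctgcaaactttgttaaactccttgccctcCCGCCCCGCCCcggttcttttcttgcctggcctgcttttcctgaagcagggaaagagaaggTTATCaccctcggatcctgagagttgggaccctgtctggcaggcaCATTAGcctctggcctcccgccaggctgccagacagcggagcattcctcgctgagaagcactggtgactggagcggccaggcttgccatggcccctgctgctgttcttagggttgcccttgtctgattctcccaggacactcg
Pax4 -1319, chr6:28400510-28400809, + strand: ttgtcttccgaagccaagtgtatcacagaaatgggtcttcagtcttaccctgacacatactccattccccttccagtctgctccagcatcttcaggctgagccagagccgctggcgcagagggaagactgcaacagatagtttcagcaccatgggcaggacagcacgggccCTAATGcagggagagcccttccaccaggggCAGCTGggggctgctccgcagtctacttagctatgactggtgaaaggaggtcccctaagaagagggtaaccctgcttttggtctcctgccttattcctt
Pax6 -2015, chr2:105506889-105507188, + strand: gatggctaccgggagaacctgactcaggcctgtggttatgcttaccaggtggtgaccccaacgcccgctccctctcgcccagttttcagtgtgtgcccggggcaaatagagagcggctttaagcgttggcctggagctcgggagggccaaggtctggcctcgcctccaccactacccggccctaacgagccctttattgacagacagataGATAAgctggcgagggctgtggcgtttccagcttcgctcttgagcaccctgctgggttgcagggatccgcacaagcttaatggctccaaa
Pax7 -25927, chr4:139414661-139414960, + strand: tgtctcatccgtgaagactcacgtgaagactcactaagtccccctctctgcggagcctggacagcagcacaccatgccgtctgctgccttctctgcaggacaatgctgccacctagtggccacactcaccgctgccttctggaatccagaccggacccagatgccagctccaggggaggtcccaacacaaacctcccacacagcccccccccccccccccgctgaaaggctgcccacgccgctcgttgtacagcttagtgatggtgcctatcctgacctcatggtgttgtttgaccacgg
The central 300 bp of Pax2 at -72983 held 28 CG dinucleotides. The Pax2 region at -15168 held 10, with CTAATG on the opposite strand, GATAA on the opposite strand and 2 overlapping GC boxes. By contrast the Pax4 region held 5 CG dinucleotides, 1 CTAATG and 1 E-box, and the Pax7 region held 11 and none of the searched motifs.

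A further 4 sequences show the 150 bases directly upstream of the 5′-most coding TSS, on the gene's own strand, with each CG dinucleotide in capitals. They were chosen to set Pax3, which had a peak over its start, beside Pax7, Pax8 and Pax4, which had none within 500 bp. All 4 genes lie on the minus strand.
Pax3 promoter, chr1:78193710-78193859, minus strand: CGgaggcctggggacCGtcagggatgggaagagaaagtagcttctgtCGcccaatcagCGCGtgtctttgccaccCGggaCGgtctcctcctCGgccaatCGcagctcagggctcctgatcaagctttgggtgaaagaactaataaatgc
Pax7 promoter, chr4:139389446-139389595, minus strand: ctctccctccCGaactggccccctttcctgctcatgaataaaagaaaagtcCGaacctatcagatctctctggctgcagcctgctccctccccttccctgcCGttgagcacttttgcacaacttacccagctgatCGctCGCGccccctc
Pax8 promoter, chr2:24331120-24331269, minus strand: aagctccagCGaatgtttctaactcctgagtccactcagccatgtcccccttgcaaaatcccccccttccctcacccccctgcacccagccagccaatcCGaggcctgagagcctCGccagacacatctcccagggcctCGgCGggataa
Pax4 promoter, chr6:28399354-28399503, minus strand: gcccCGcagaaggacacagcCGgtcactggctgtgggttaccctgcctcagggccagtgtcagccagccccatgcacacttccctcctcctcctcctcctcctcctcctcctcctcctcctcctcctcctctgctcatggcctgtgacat
These stretches held 9 CG dinucleotides at Pax3, 6 at Pax7, 5 at Pax8 and 2 at Pax4. Among the genes not printed, Pax1 held 7 and Pax2 8, with a peak within 500 bp of that TSS. Pax9 held 13, Pax6 12 and Pax5 5 without one, so the count did not separate genes with such a peak from genes without.

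Across the family, 8 of 9 genes had a peak (88.9%, 95% Wilson confidence interval 56.5 to 98.0%), beside 62.5% of the 21900 protein coding genes of the reference table. The interval is wide because the family is small, and it holds the value of all coding genes. Pax genes had 2.67 peaks on average and a median of 3, compared with an average of 1.07 and a median of 1 over all coding genes. Pax2 had 7 peaks, Pax3 had 4, Pax6, Pax7 and Pax8 had 3 each, Pax9 had 2, and Pax1 and Pax4 had 1 each. Among all coding genes, 10.3% had at least 3 peaks, as did 5 of the Pax genes, and 4.78% had at least 4. There were 135 genes (0.616%) with at least the 7 peaks of Pax2.

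**Figure D1:**
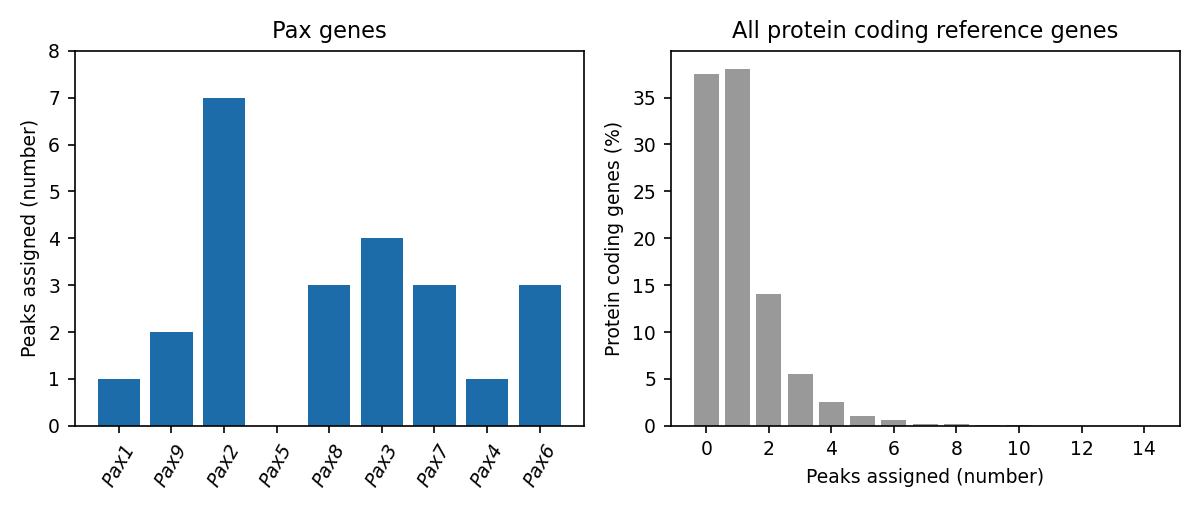
Peaks assigned to each Pax gene (left, bars, number of distinct peaks) and the share of all 21900 protein coding reference genes with each number (right). Pax2 stands at 7 peaks and Pax5 at 0, while most genes had 0 or 1.

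A smaller share of Pax peaks than of peaks in general lay within 1 kb of the assigned TSS. Of the 24, 4 (16.7%, 6.68 to 35.9%) were centred less than 1 kb from the assigned TSS, compared with 44.9% (44.3 to 45.5%) of all peaks, and these intervals did not overlap. The 4 belonged to Pax2, Pax3, Pax6 and Pax9, 1 each. Within 10 kb there were 10 (41.7%, 24.5 to 61.2%, beside 58.6% of all peaks), and beyond 50 kb there were 7 (29.2%, 14.9 to 49.2%, beside 17.0%), and both Pax intervals include the value of all peaks. The median distance was 14882 bp for Pax peaks and 4154 bp for all peaks. Among peaks beyond 1 kb, however, the median was 22773 bp for Pax peaks and 25163 bp for all peaks. Of those Pax peaks 30.0% lay within 10 kb, beside 25.0%, and 35.0% beyond 50 kb, beside 30.8%. The contrast in distance was thus one of the share within 1 kb. These shares are over peaks, so a gene with many peaks weighs more in them. Counted by gene, 4 of 9 Pax genes had a peak within 1 kb of the assigned TSS, and 50.0% of coding reference genes did. Peaks of 1 gene are also not independent of each other.

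Upstream positions were frequent, with 16 of 24 Pax peaks (66.7%, 46.7 to 82.0%) on the 5′ side of the assigned TSS, compared with 40.3% (39.7 to 40.9%) of all peaks. Part of this difference came with a single gene. All 7 peaks of Pax2 were upstream of the assigned TSS, and without them 9 of 17 were (52.9%, 31.0 to 73.8%), an interval that holds the value of all peaks.

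**Figure D2:**
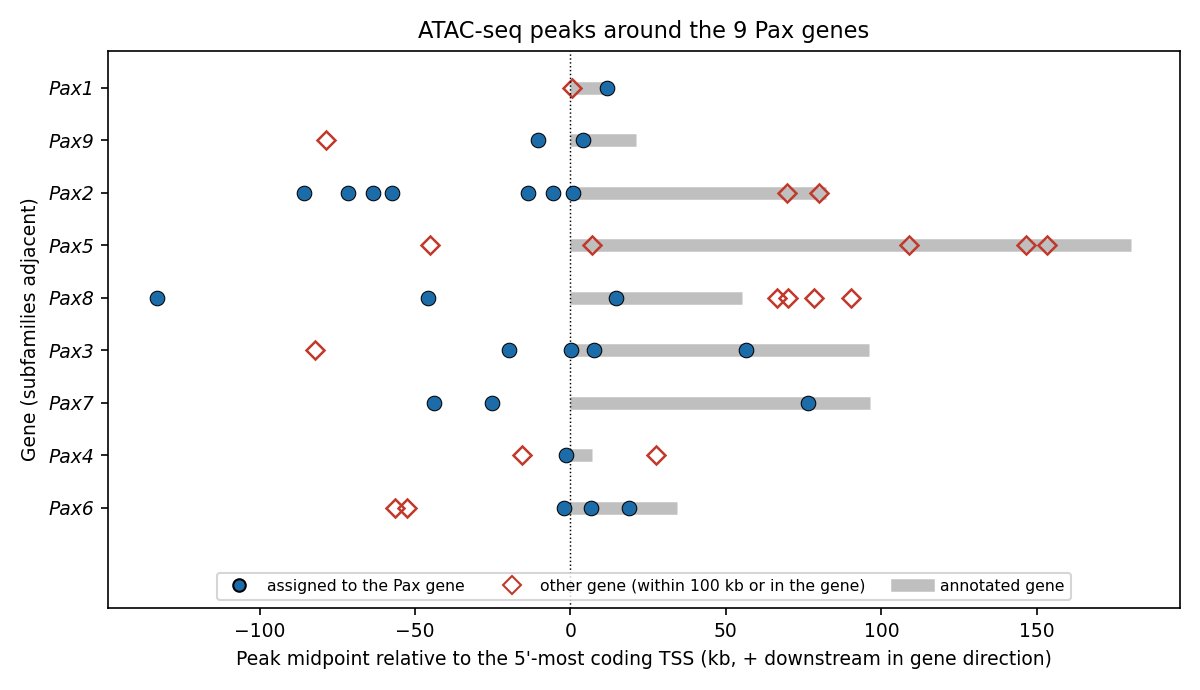
Midpoints of ATAC-seq peaks around the 9 Pax genes, in kb from the 5′-most coding TSS and drawn in the direction of transcription. Filled circles are peaks assigned to the Pax gene, open diamonds are peaks assigned to another gene that lie within 100 kb of the TSS or inside the annotated Pax gene, and grey bars are annotated genes. Pax2 has 6 of its 7 assigned peaks upstream, and the other covers the start with its midpoint 809 bp past it, and the peaks inside Pax5 all carry other names.

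Pax1, a regulator of the sclerotome and the pharyngeal pouches, had 1 peak of its own. It lay 8801 bp downstream of the assigned TSS (chr2:147199167-147199897, 731 bp), on a coding exon near the end of the 13.1 kb gene. A second peak stood nearer to the 5′-most TSS of Pax1, with its midpoint 579 bp past it on a coding exon (chr2:147187699-147188780, 1082 bp), but the list assigned it to AI646519. The start of Pax1 therefore had open chromatin that its symbol does not show. By nearest coding TSS, 3 peaks fell in the 431 kb territory of Pax1, or 0.696 per 100 kb, near the 0.60 over coding genes with a territory of at least 100 kb.

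Pax9, which is needed for thymus, parathyroid and tooth formation, had 2 peaks. One covered an annotated coding TSS (chr12:57796046-57797223, 1178 bp). Its midpoint was 176 bp downstream of the assigned TSS, which lay 168 bp from the nearest annotated TSS of Pax9. The other was intergenic, 14216 bp upstream (chr12:57781782-57782703, 922 bp). The annotation gives Pax9 a second coding TSS farther 5′, and the nearest peak midpoint to that one was 3881 bp away. Neighbouring Nkx2-9, a homeobox gene of the ventral neural tube, had the only other peak within 100 kb of Pax9, at its own start.

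Pax2, a regulator of the kidney, the optic stalk and the midbrain-hindbrain boundary, had the most peaks of the family, and they formed 2 runs, at its start and upstream of it. The near run had 3 peaks. The peak at 537 bp upstream (chr19:44830203-44832492) was 2290 bp wide, the widest Pax peak, had a GC content of 64.3% and covered 4 annotated coding TSSs. The next stood 6895 bp upstream (chr19:44824289-44825691, 1403 bp) and the one after it 15168 bp upstream (chr19:44816221-44817213, 993 bp), both intergenic. Gaps of 4511 and 7075 bp separated these 3. After 42743 bp without a peak, a far run of 4 peaks began at 58800 bp upstream (785 bp wide) and continued at 64755 (997 bp), 72983 (1127 bp) and 87213 bp (1912 bp).

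The outermost of the far run, chr19:44743716-44745627, was intergenic and wider than 97.4% of all peaks between 50 and 100 kb from a TSS. Its interval stood on 2 lines of the list and was counted once. The central 300 bp of this peak held a long CT repeat and 0 CG dinucleotides. Whether the repeat affected the call or the width of the peak was not tested. The peak at 64755 bp overlapped an exon of the noncoding gene Gm17704, and the others of the run were intergenic. Counting by nearest coding TSS, Pax2 had 4.84 peaks per 100 kb of territory (9 peaks in 186 kb), the highest value in the family.

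Inside the 82.2 kb Pax2 gene, 2 further peaks were listed under 1700039E22Rik. The first was intronic (chr19:44899671-44900771, 1101 bp). The second covered a coding exon near the 3′ end of Pax2 (chr19:44909398-44911535), 2138 bp wide with a GC content of 63.5%, and stood 38 bp upstream of the assigned start of 1700039E22Rik.

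Pax5, which commits lymphoid precursors to the B lineage and also acts at the midbrain-hindbrain boundary, had 0 peaks under its own symbol, as did 8218 coding genes. Yet 4 peaks lay in introns of the 180.3 kb gene. The list gave 3 of them to the microRNA gene Mir5120, at 109002, 146559 and 153237 bp past the 5′-most TSS and 994, 807 and 1474 bp wide. The fourth, 6996 bp past that TSS (chr4:44716707-44717936, 1230 bp), was assigned to 5730488B01Rik and was rich in CG, with 63.3% GC and a CpG ratio (observed over expected) of 0.82. The TSSs of Pax5 themselves had no peak within 1000 bp. Assigning each peak to its nearest annotated coding TSS instead gave all 4 to Pax5.

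Pax8, a thyroid and kidney regulator, had 3 peaks, and none was near its start. An intronic peak stood 14596 bp downstream (chr2:24316160-24316887, 728 bp), an intergenic one 45915 bp upstream (chr2:24376745-24377325), and another 132956 bp upstream (chr2:24463346-24464805). At 581 bp the intergenic peak was the narrowest of the family. The most distant was 1460 bp wide, wider than 94.0% of peaks over 100 kb from their assigned TSS. It lay in an intron of the calcium channel gene Cacna1b. In the annotation used here a coding TSS of Cacna1b was only 9765 bp away, much nearer than that of Pax8. Within 100 kb of Pax8, 4 other peaks were assigned to Psd4.

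Pax3, a regulator of neural crest, dorsal neural tube and limb muscle precursors, had 4 peaks, of which 1 covered its start. That peak (chr1:78192946-78194273) had its midpoint 102 bp downstream, was 1328 bp wide and covered 2 coding TSSs. The only upstream peak of Pax3, at 19619 bp, was intergenic and 1997 bp wide, wider than 97.2% of peaks 10 to 50 kb from a TSS. Within introns of Pax3 lay a peak at 7423 bp (chr1:78185748-78186830, 1083 bp) and one at 56388 bp downstream (chr1:78136954-78137693, 740 bp). The latter had the lowest GC content of the family, 49.6%.

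Pax7, the paralogue of Pax3 that marks muscle satellite cells, had 3 peaks and differed from Pax3 at its start. Its peaks stood 25927 bp upstream (chr4:139414347-139415274, 928 bp), 44434 bp upstream (chr4:139432956-139433679, 724 bp) and 75795 bp downstream (chr4:139312570-139313607, 1038 bp). The upstream ones were intergenic and the downstream one intronic. No peak midpoint, of any gene, was nearer than 25366 bp to the 5′-most TSS of Pax7, the longest such distance in the family. Each peak within 100 kb of Pax7 carried its symbol.

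Pax4, which acts in beta and delta cell differentiation in the pancreas, had 1 peak. It lay 1319 bp upstream (chr6:28400341-28400978), was intergenic, and at 638 bp was narrower than most, being wider than 8.46% of peaks 1 to 10 kb from a TSS. The gene is short, 7.02 kb, and the other 2 peaks within 100 kb were assigned to its neighbours Snd1 and Gcc1.

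Pax6, a regulator of the eye, forebrain and pancreatic islet, had 3 peaks along its several alternative starts. The annotation gives it 21 coding TSSs spread over 20559 bp, and the deposited distances of its peaks were measured from different ones. The peak 368 bp upstream of its assigned TSS (chr2:105514823-105516244, 1422 bp) covered 5 annotated coding TSSs and lay 6481 bp past the 5′-most one. The peak 2015 bp upstream (chr2:105506519-105507559, 1041 bp) lay in an intron of the antisense gene Pax6os1, and the one 5293 bp downstream (chr2:105527451-105528377, 927 bp), in an intron of Pax6. A pair of peaks farther upstream, in introns of Pax6os1 with midpoints 52506 and 56566 bp from the 5′-most TSS, were assigned to the noncoding gene Paupar. ATAC-seq reads carry no strand of transcription, so peaks at Pax6 and its antisense neighbours cannot be told apart by gene.

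Because a symbol follows the nearest listed TSS, open chromatin around Pax genes was also counted whatever its symbol. There were 38 peaks within 100 kb of a 5′-most Pax TSS, 23 assigned to the Pax gene and 15 to others. Inside annotated Pax genes lay 17 peaks, 10 under the name of the host and 7 under another. By nearest annotated coding TSS, 33 peaks fell to the 9 genes, and each Pax gene then had at least 1. Over a summed territory of 2058 kb this was 1.60 peaks per 100 kb, beside 0.988 for the territories of all coding genes and 0.60 for those of at least 100 kb. Among other homeobox families with developmental roles, Irx genes had 0.720 and Msx and Dlx genes 3.74 peaks per 100 kb, so the Pax value lay inside the range of these families.

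Promoters were counted open where a peak overlapped 500 bp on either side of a coding TSS. Of the Pax genes 5 of 9 met this, namely Pax1, Pax2, Pax3, Pax6 and Pax9, beside 56.3% of 22219 coding genes. The family was thus near the background in open promoters. With only the 5′-most TSS of each gene, 3 promoters (Pax1, Pax2 and Pax3) were open, since the peaks of Pax6 and Pax9 lay at internal starts.

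CpG-rich promoters, defined here by a CpG ratio of 0.6 or more and 50% GC or more, overlap a peak more often. Among the Pax genes these were Pax1 (GC 50.4%, ratio 0.65), Pax2 (63.9%, 0.69), Pax3 (58.4%, 0.67), Pax7 (59.8%, 0.64) and Pax9 (56.3%, 0.63). A peak overlapped a start of 4 of these 5 genes (37.6 to 96.4%), beside 90.0% of the 9931 coding genes with such a promoter. At the 5′-most TSS itself, 3 of the 5 overlapped a peak, beside 89.4%. Pax7 had no peak by either count. The promoters of Pax5 (56.0%, 0.52) and Pax6 (55.9%, 0.57) were just under the CpG limit, and those of Pax8 (57.0%, 0.22) and Pax4 (48.7%, 0.05) far under it. Of these 4, Pax6 alone had an open start.

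**Figure D3:**
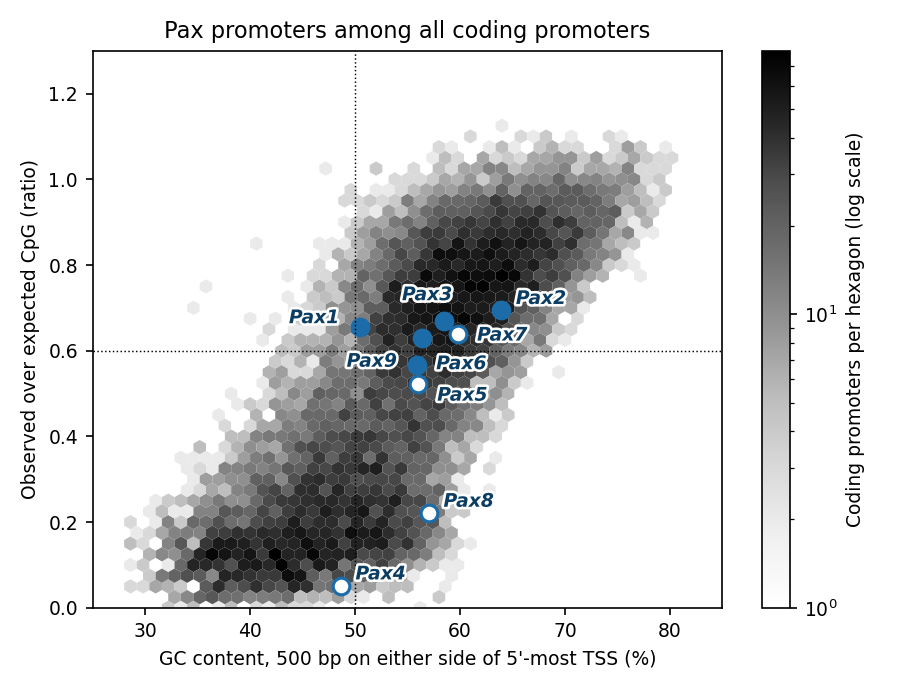
GC content (%) and observed over expected CpG ratio of the 1000 bp around the 5′-most coding TSS, for all coding genes (grey hexagons, number per hexagon on a log scale) and the Pax genes (circles). Filled circles have a peak within 500 bp of any coding TSS, open circles have none, and dotted lines mark the limits of 50% and 0.6; Pax7 is the open circle inside the CpG-rich quadrant.

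Widths of Pax peaks were like those of the whole list. The median was 1017.5 bp (95% confidence interval 785 to 1328 bp), with quartiles of 773.75 and 1346.75 bp and a range of 581 to 2290 bp, while all peaks had a median of 1081 bp and quartiles of 835 and 1433 bp. Peaks near a TSS are wider in this list, so widths were also read by distance. The 4 Pax peaks within 1 kb had a median of 1375 bp (all peaks 1326 bp), the 6 from 1 to 10 kb had 984 bp (1014 bp), the 7 from 10 to 50 kb had 922 bp (912 bp), and the 6 from 50 to 100 kb had 1017.5 bp (873 bp). The Pax median lay between the quartiles of all peaks in each of these 4 classes.

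**Figure D4:**
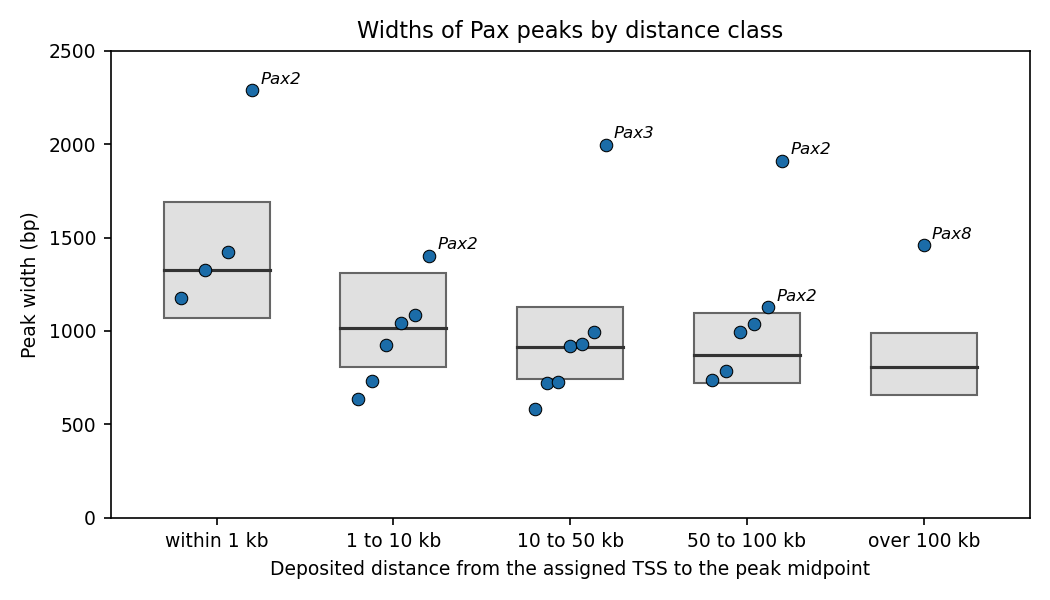
Width in bp of each Pax peak (points, spread sideways only for legibility) in 5 classes of distance from the assigned TSS, with the median (line) and quartiles (box) of all peaks in each class. The named points lie above the box of their class, among them Pax3 at 1997 bp, Pax2 at 1912 bp and Pax8 at 1460 bp.

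Pax peaks away from gene starts had somewhat higher GC and CpG content than such peaks in general. The 20 Pax peaks beyond 1 kb had a median GC content of 54.8% and a median CpG ratio of 0.41, compared with 51.4% and 0.24 over 14460 peaks. Of the 20, 4 were CpG-rich by the promoter limits (20.0%, 8.07 to 41.6%), beside 7.42% (upper limit 7.86%) of all peaks beyond 1 kb. Among the 4, the Pax3 peak at 7423 bp downstream (0.60) and the Pax8 peak at 45915 bp upstream (0.61) lay at the limit for the CpG ratio, so the difference in this share rests on members at the cut. They belonged to Pax2, Pax3 and Pax8, and Pax3 had 2 of them. The central sequence of the one at Pax2, 72983 bp upstream, is printed above, where GC boxes stand in capitals among runs of CG. Of the 24 peaks, 11 were intergenic, 7 had their midpoint in an intron, 1 in a coding exon and 5 in an untranslated or noncoding exon.

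Motif letters in the central 300 bp were counted on both strands. GGGCGG was found in 13 of 24 Pax peaks (54.2%, 35.1 to 72.1%) and in 41.8% of all peaks. Beyond 1 kb it was found in 10 of 20 (50.0%, 29.9 to 70.1%) and in 21.7% of all such peaks. The motif itself holds a CG, and whether its share follows the CG content described above was not tested. GATAA was found in 5 (20.8%, beside 20.2% of all peaks), at Pax2, Pax3 and Pax6. CAGCTG was found in 6 (25.0%, beside 21.2%). The shares of GATAA and CAGCTG were close to those of the whole list.

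Homeodomain letters were counted in the same way. TAATTA occurred in 1 Pax peak, the distant one of Pax8 (4.17%, beside 3.00% of all peaks). CTAATG occurred in 3, Pax2 at 15168 bp upstream, Pax3 at 56388 bp downstream and Pax4 (12.5%, beside 6.54%). Either was present in 4 of 24 (16.7%, 6.68 to 35.9%, beside 8.81%), an interval that holds the value of all peaks. All 4 lay beyond 1 kb, where the share was 20.0% (8.07 to 41.6%), beside 13.0% of all such peaks. Over the whole peak the shares were 41.7% for Pax peaks and 34.1% for all peaks. TCACGC was found in 0 of 24, which allows a share of up to 13.8% (Wilson upper limit), and in 7.89% of all peaks. A match is a string of letters and not a bound site.

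The genes that work with Pax factors or share their tissues were described from lists, beside 62.5% of all coding genes with a peak and 56.3% with an open promoter. Of 10 Pax cofactors, 9 had a peak and the list had 20 peaks, with 4 at Dach1 and 3 at Wdr5, a subunit of histone methyltransferase complexes, and none at Paxbp1. No promoter under the name Paxbp1 was available, so its lack of a peak was not checked by position. Msx and Dlx genes had a peak at 9 of 9 genes (23 peaks), and Irx genes at 4 of 6 (16 peaks, 10 of them at Irx3). In all these lists, peaks were counted by their assigned gene. A gene counted without a peak can therefore still have an open promoter, as occurred in the Irx and kidney lists. Open promoters numbered 8 of 9 for Msx and Dlx, 3 of 6 for Irx and 5 of 9 for Pax.

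Lists for the tissues in which Pax genes act were read beside the 62.5% of all coding genes with a peak, and small lists have wide intervals. Neural crest and plate border genes had a peak at 9 of 10 (Sox10 had none), somite and sclerotome genes at 9 of 10 (Tbx6 had none), eye and forebrain genes at 10 of 10, and kidney genes at 8 of 10. Skeletal myogenic genes had one at 6 of 8, with Myf5 and Myf6 at 0, pancreatic islet genes at 8 of 10, thyroid and pharyngeal genes at 7 of 10, and B lymphocyte genes at 4 of 10 (16.8 to 68.7%), with Cd79a and Cd79b at 0. Of these tissue lists, only the eye and forebrain list had an interval (72.2 to 100%) that left out the share of all coding genes. The shares of the other tissue lists could not be told apart from it. The label of the cells was read against cardiac progenitor markers, of which 10 of 11 had a peak (62.3 to 98.4%). This interval also holds the share of all coding genes. The markers averaged 3.73 peaks per gene, with 8 at Isl1, 6 at Tbx20, 5 at Tbx5, 3 at Nkx2-5 and none at Hand2. Accessibility of a gene is not its expression, and markers of other cell types were open as well, so the share of other cells in the culture was not tested.

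**Figure D5:**
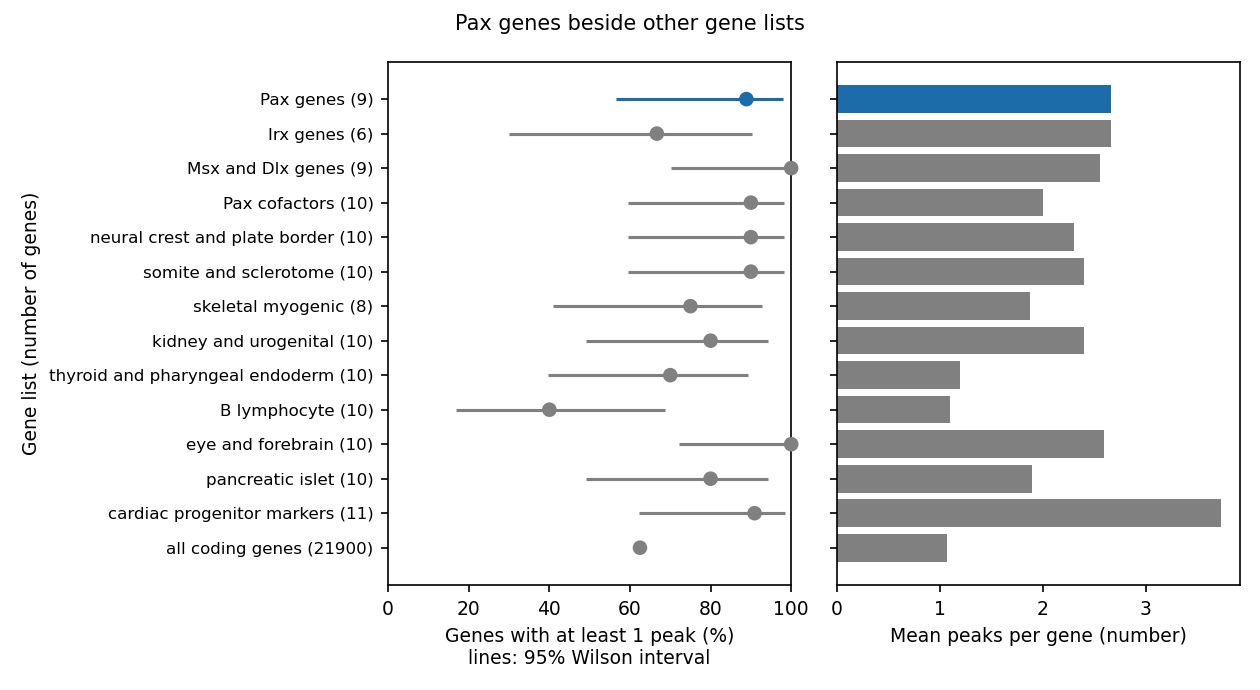
Left, share of genes with at least 1 assigned peak (%, points, with 95% Wilson confidence intervals as lines) in the Pax family, in other gene lists and over all coding reference genes. Right, mean peaks per gene (bars), where the Pax genes stand at 2.67, Irx genes at 2.67, cardiac progenitor markers at 3.73 and all coding genes at 1.07.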

How the data were processed

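ATAC-seq was performed on 2 day 5 CPC samples of 1 group. Per the study's methods and processing notes, the authors mapped reads to mm9 with bowtie2, removed duplicates with Picard 1.136, called peaks per replicate with MACS14 using a fixed shift in place of a fitted model, dropped ENCODE blacklisted regions and kept peaks overlapping the other replicate by at least 1 bp with bedtools 2.15. HOMER assigned the nearest TSS, a step described for ChIP-Seq peaks. No correction for the Tn5 cut position is described, and each width therefore reflects caller and depth as well as chromatin.

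The deposited list, without header, gives start and end in bp, the signed distance in bp, an accession and a symbol for 26429 lines. No score or count per peak was used, as the list has none. Only regions called in both replicates were listed, so a missing peak is no measurement of closed chromatin.

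Distinct intervals were counted once. Sequence (NCBIM37, the assembly named mm9) and GENCODE vM1 gene models were those of the reference. Of the 24 Pax distances, 17 matched the start of an annotated transcript of the gene, coding or not, within 2 bp. For shares of genes, 21900 coding genes of a RefSeq gene table on another assembly were used for names only, in whose transcript lists 96.7% of the accessions were found, with the others matched by symbol. A territory is the stretch of positions nearest to a gene's coding TSSs. Shares have 95% Wilson intervals and medians order-statistic intervals. There was no test, since there is 1 group and no value per replicate. The text names all Pax genes, genes assigned to peaks within 100 kb of a Pax TSS, and members of 14 lists, while host genes of peaks (Gm17704, Pax6os1, Cacna1b) were named after their values were seen. Members and lists were chosen with earlier results of these data known. Some genes of the lists and the sequence of 1 Pax3 peak are not reported here. Counting was tested on simulated data. Alternatives were a minimum width of 500 bp, peaks wider than the median, every line, nearest coding TSS, other promoter and window sizes and whole-peak motif counts. Python 3.11.15, pandas 2.3.3, scipy 1.17.1 and pysam 0.24.0 were used.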

Additional observations from a re-analysis of the deposited data

How the results depend on the processing

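Of 21 values recomputed under alternatives, 15 stayed within 1.5 times (counts) or within the 95% interval of the value reported (shares and widths). A minimum width of 500 bp removed no Pax peak. Peaks wider than the median of the list left 10 Pax peaks at 5 genes with a median width of 1412.5 bp, and 60% of these lay within 10 kb. The 5′-most TSS alone gave 3 open Pax promoters, and a window of 50 kb held 22 peaks. Homeodomain letters in whole peaks were present in 41.7% of Pax peaks and 34.1% of all peaks. The direction of these changes was set by the choices made. Under the width limit, counts could only fall and the median width only rise. Counts could likewise only fall with the 5′-most TSS or the smaller window, and motif shares only rise in whole peaks. Assignment to the nearest annotated coding TSS gave 33 peaks at 9 genes, 36.4% of them within 10 kb, adding 10 peaks and moving 1 from Pax8 to Cacna1b. The upstream share without Pax2, 52.9%, was chosen after seeing the data. No paired analysis was possible because only 1 group exists, and neither replicate could be dropped, as the list pools them. Unknown depth limits what the absence of a peak can show, at Pax5 and Pax7 above all.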
